A study of Mus musculus with 6 samples.

Results

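The genes described here are 56 genes of mitosis and the spindle, followed in mouse bone-marrow-derived macrophages exposed to extracellular vesicles (EVs, membrane-bound particles shed by cells) of the mould Aspergillus flavus. They were chosen by name, and each had to reach 60 reads summed over the 6 libraries. All 56 did, of 41972 entries in the count table, and their totals ran from 422 to 21181 reads. The macrophages were grown for 6 days from marrow of wild-type male C57BL/6 mice aged 6 weeks, with 20% serum and 30% of a medium conditioned by L-929 cells, which supplies the macrophage growth factor M-CSF. The cells then spent 6 h with EVs at 20 µg per well in the LD-F1 group, with EVs at the same dose in the LD-F1_b group, or with PBS. Each EV group is called a strain in the sample titles, and the labels leave the suffix unexplained. Each group held 2 biological replicates, and the labels do not say whether these came from separate animals or cultures, so p-values measure the spread between these libraries.

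Mitosis runs on a transcriptional programme that is switched on late in the cell cycle. The activator MYBL2 joins the MuvB complex at promoters that carry a CHR element, often beside CCAAT boxes bound by NF-Y, and FOXM1 follows; in resting cells the DREAM complex, built from MuvB with E2F4 and RBL1 or RBL2, holds the same promoters down. The products include cyclin-dependent kinase 1 and its cyclins, the checkpoint that watches spindle attachment, the kinetochore, the motors and microtubule proteins of the spindle, the condensins and the cytokinesis machinery. Marrow-derived macrophages divide in response to M-CSF, so a culture normally holds some cells in division.

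Promoter sequence is shown for 6 of the genes, because the CHR and CCAAT letters are the feature that the selection by name did not use. The windows are from RefSeq (GRCm38.p6), 250 bases before to 50 after the annotated start, written 5′ to 3′ on the gene's strand. Capitals mark the CHR (TTTGAA) and the CCAAT box (CCAAT) on either strand; no CHR match overlaps a CCAAT match in these windows. Cdk1 (chr10:69352863-69353162, minus strand), Top2a (chr11:99024140-99024439, minus strand), Ttk (chr9:83834439-83834738, plus strand) and Kif15 (chr9:122950831-122951130, plus strand) were among the genes that fell. Mybl2 (chr2:163054385-163054684, plus strand) fell with no match in its window, and Ccnb2 (chr9:70421505-70421804, minus strand) did not pass the test although its window holds both.
Cdk1: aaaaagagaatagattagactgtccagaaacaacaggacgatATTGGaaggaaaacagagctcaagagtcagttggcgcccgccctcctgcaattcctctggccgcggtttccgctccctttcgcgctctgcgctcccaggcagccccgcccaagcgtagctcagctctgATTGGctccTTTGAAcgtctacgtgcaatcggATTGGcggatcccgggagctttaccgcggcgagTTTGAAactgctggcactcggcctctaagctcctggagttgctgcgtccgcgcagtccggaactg
Top2a: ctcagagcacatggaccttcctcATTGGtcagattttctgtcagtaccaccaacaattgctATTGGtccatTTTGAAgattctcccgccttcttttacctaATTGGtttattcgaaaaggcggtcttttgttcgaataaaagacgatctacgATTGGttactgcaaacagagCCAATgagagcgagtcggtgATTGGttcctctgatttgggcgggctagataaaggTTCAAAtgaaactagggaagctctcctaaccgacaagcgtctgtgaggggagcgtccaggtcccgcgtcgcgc
Ttk: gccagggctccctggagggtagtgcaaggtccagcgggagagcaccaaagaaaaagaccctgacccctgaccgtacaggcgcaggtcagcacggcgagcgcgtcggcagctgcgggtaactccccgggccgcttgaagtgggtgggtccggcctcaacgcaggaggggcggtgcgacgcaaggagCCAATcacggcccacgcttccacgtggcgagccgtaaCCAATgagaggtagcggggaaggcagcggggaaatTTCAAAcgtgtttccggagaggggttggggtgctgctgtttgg
Kif15: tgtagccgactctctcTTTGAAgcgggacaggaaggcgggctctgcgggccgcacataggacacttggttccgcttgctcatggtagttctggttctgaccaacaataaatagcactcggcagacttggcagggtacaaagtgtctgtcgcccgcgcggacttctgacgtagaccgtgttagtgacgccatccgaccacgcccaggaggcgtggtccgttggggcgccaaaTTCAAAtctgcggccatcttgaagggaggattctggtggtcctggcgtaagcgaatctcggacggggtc
Mybl2: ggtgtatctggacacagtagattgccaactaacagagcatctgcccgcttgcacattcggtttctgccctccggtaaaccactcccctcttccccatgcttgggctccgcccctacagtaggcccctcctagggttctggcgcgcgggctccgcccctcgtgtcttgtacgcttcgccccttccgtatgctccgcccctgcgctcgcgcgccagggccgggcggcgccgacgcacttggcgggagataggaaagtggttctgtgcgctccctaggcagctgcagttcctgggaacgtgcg
Ccnb2: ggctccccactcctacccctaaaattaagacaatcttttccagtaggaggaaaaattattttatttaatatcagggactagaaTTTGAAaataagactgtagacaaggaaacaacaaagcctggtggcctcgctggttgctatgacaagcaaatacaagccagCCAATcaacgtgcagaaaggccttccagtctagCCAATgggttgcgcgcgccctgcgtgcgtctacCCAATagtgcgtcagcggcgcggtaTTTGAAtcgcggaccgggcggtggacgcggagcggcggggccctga

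A window was at hand for 47 of the 56 genes. The CHR letters were in 33 of them (70.2%), against 11.8% of the 8474 tested genes with a window and 18.1% of all 27025 windows. CCAAT was in 34 member windows (72.3%), against 38.8% and 37.9%. Both occurred together in 28 member windows (59.6%), against 5.09% and 7.12%. The CHR lay within 50 bases of the annotated start in 30 of the 47 (63.8%), against 2.94% of tested genes and 4.92% of all windows. An E2F motif (TTCCCGC, both strands) was in 2 member windows (4.26%), against 8.89% of tested genes and 4.66% of all windows. In 66 windows of mitosis genes outside the 56, the CHR was in 37.9%, CCAAT in 65.2% and both in 28.8%. The E2F motif was in 13.6% of those windows. A match describes the letters in the window only and is not evidence of binding.

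**Figure D1:**
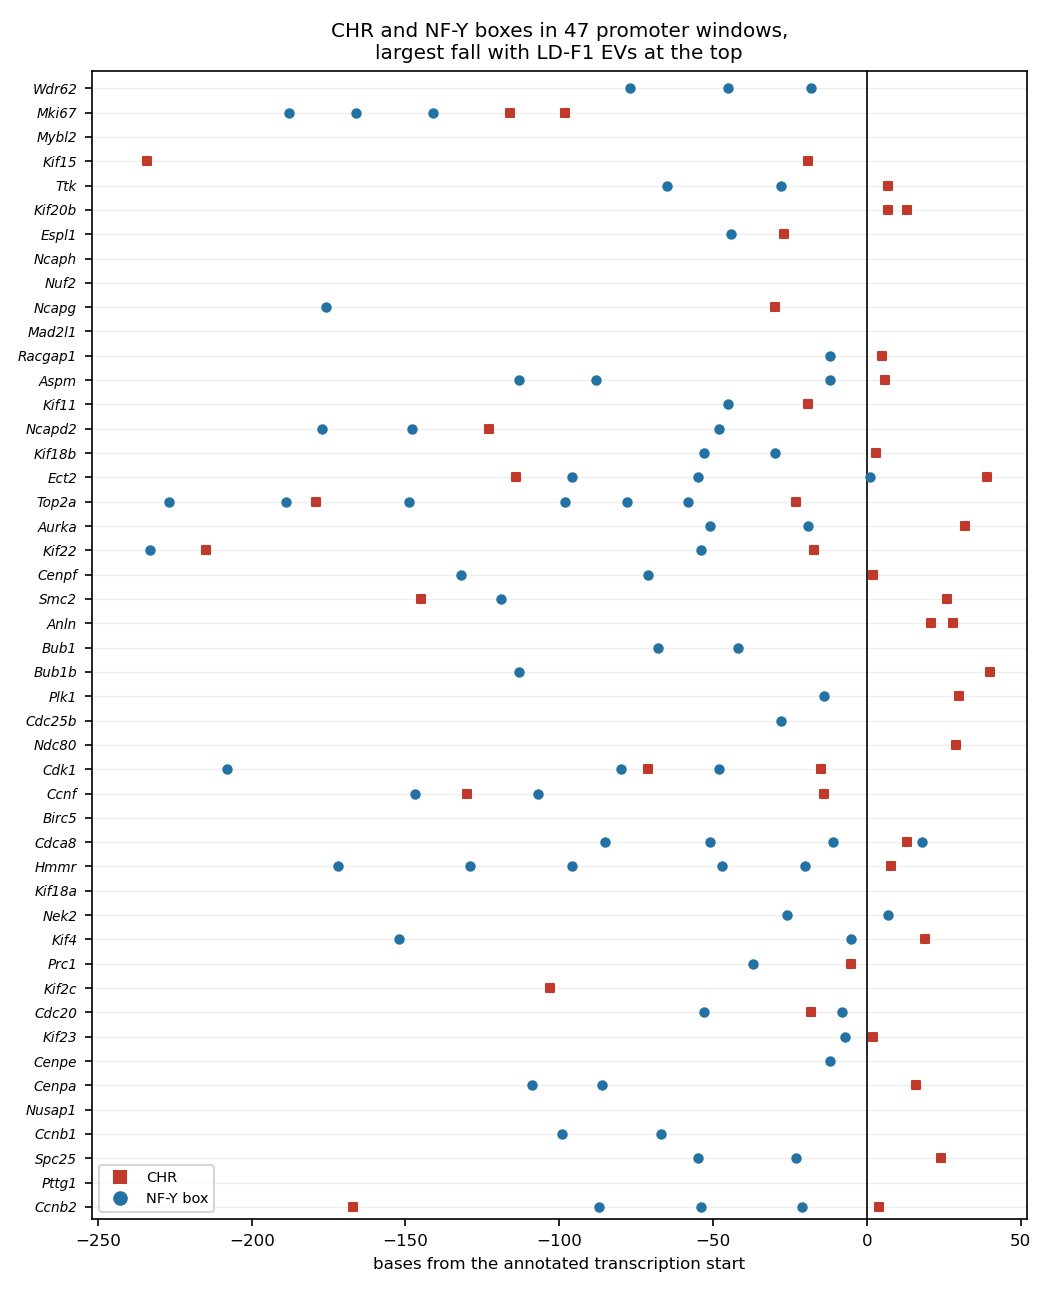
Position of CHR (squares) and NF-Y (CCAAT, circles) matches in the 47 promoter windows, in bases from the annotated start, one gene per row ordered by log2 fold change with LD-F1 EVs. Most of the CHR matches line up near the start; Mybl2, close to the top, has none, and Ccnb2, in the bottom row, has 2.

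The libraries held 13722215 and 14589976 counts with LD-F1 EVs, 14540448 and 14618148 with LD-F1_b EVs, and 14702478 and 15277997 with PBS. Levels are given as CPM, a read count scaled to library size, with TMM factors that correct for library composition. The cells carried macrophage markers. Csf1r, Adgre1 and Cd68 passed the test in neither EV comparison, which does not show that they were unchanged. Of the 5 macrophage markers tested, 4 had a log2 fold change below 0 with LD-F1 EVs and 3 with LD-F1_b EVs. The lowest values were -0.65 with LD-F1 EVs and -0.52 with LD-F1_b EVs, neither of them called. Mrc1 fell with LD-F1 EVs (-0.55 on the log2 scale), and Itgam had 7 reads and Mertk 28 over all libraries. The 7 macrophage markers summed to 2344 and 2116 CPM with LD-F1 EVs, 2393 and 2437 CPM with LD-F1_b EVs, and 2384 and 2383 CPM with PBS. Of 7 neutrophil markers, S100a9 and Ly6g were at 0, and the list summed to 3.45 and 3.48 CPM with LD-F1 EVs, 3.48 and 2.90 CPM with LD-F1_b EVs, and 2.48 and 2.65 CPM with PBS. These low neutrophil sums were a little higher in the EV groups. The 1 neutrophil marker tested was at -0.05 with LD-F1 EVs and -0.07 with LD-F1_b EVs on the log2 scale, called in neither. Of 7 myeloid progenitor markers, Elane and Ctsg were at 0 and the list summed to at most 0.829 CPM in a library. The 5 fibroblast or stroma markers, mostly Pdgfrb, summed to 2.92 and 2.35 CPM with LD-F1 EVs, 2.16 and 2.07 CPM with LD-F1_b EVs, and 1.57 and 1.64 CPM with PBS; the part of these in the results was not tested. Erythroid, B cell, and T and NK cell lists reached at most 1.04, 0.63 and 0.278 CPM in a library, and the 4 mast cell markers were at 0.

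Mitosis and spindle RNA was lower after LD-F1 EVs. The 56 genes summed to 2423 and 2386 CPM with LD-F1 EVs, against 3736 and 3719 CPM with PBS, a ratio of 0.645. In edgeR's quasi-likelihood test with Benjamini-Hochberg adjustment over 12740 genes, called at an adjusted p of 0.05, 46 genes fell, 0 rose and 10 did not pass, while 9.87% of all genes tested fell, 11.4% rose and 21.2% changed either way. Their median log2 fold change was -0.59, against 0.01 over all genes tested. Both LD-F1 libraries lay below both PBS libraries for 54 of the 56 genes, against 29.6% of all genes tested, and above them for 0, against 29.9%. In these bulk samples, fewer dividing cells and less of this RNA per cell cannot be told apart.

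LD-F1_b EVs gave fewer calls, again all of them lower. The genes summed to 2904 and 2787 CPM with LD-F1_b EVs, against 3736 and 3719 CPM with PBS, a ratio of 0.763. By the same edgeR test 25 genes fell, 0 rose and 31 did not pass, while 4.54% of all genes tested fell, 6.44% rose and 11% changed either way. The median was -0.36, against 0.01 over all genes tested, and 50 genes had both LD-F1_b libraries below both PBS libraries, against 30% of all genes tested, while 0 had both above, against 30.4%. The LD-F1_b count depended on every library: 4 genes were called lower without LD-F1_b replicate 1, 3 without LD-F1_b replicate 2, 1 without PBS replicate 1 and 4 without PBS replicate 2. For LD-F1 the count was 31 without either PBS replicate and 48 and 46 without LD-F1 replicates 1 and 2. A fit of only LD-F1_b and PBS called 40. The share of all genes called in that fit, or with a library left out, is not given here. These counts therefore cannot be told apart from a change in calling over all genes. Both EV comparisons use the same PBS libraries.

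**Figure D2:**
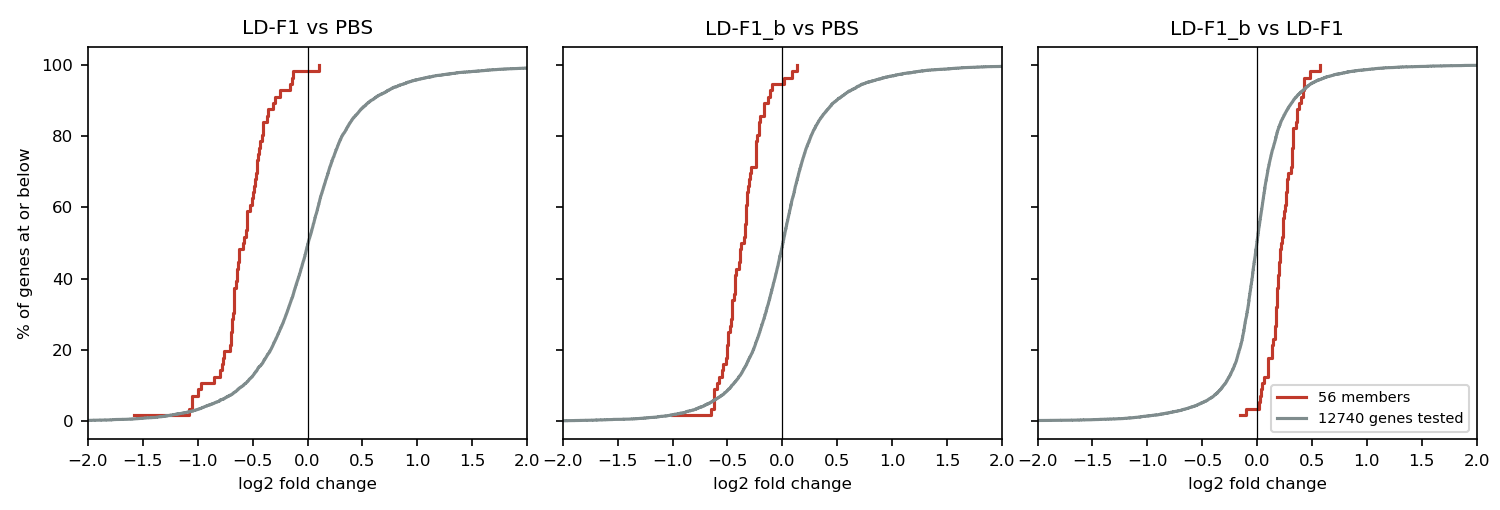
Share of genes (y axis, %) at or below each log2 fold change (x axis, -2 to 2) for the 56 members and all 12740 genes tested, in each comparison. The members' curves lie left of all genes in both comparisons with PBS (medians -0.59 and -0.36) and right of them for LD-F1_b against LD-F1 (median 0.22); 145, 77 and 47 genes lie beyond the axis.

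The kinases, cyclins and phosphatases of the list drive entry into mitosis, and 8 of these 10 genes fell with LD-F1 EVs and 3 with LD-F1_b EVs. Cdk1, the kinase that triggers mitosis, had 53.7 and 57 CPM with LD-F1 EVs, 74.2 and 73.6 CPM with LD-F1_b EVs, and 80.1 and 79.4 CPM with PBS. The LD-F1 libraries were the low ones, and no groups overlapped. Its log2 fold change was -0.53 ± 0.09 (SE; edgeR adjusted p = 0.00175) with LD-F1 EVs and -0.11 ± 0.09 with LD-F1_b EVs (adjusted p = 0.519). Ccnb1, the cyclin B1 partner of Cdk1, had 58.2 and 59.3 CPM with LD-F1 EVs, 62.2 and 63.3 CPM with LD-F1_b EVs, and 70.4 and 74.0 CPM with PBS. Both EV groups lay below PBS, by a small margin. Its change of -0.30 ± 0.09 with LD-F1 EVs only just passed (edgeR adjusted p = 0.0433) and was lost with DESeq2, with no filter, with the replicate block, in the 2-group fit and without either PBS replicate, at adjusted p-values up to 0.32 over the alternatives. Plk1, the polo-like kinase of spindle assembly and mitotic exit, had 48.9 and 43.5 CPM with LD-F1 EVs, 52.7 and 53.9 CPM with LD-F1_b EVs, and 64.4 and 71.3 CPM with PBS. It fell with LD-F1 EVs (-0.56 ± 0.11, edgeR adjusted p = 0.00282), and its -0.35 ± 0.11 with LD-F1_b EVs did not pass (adjusted p = 0.056). The LD-F1 call of Plk1 was lost without PBS replicate 2, at an adjusted p of 0.0641, and Plk1 was called with LD-F1_b EVs with library totals alone, no filter, gene length offsets (with or without the replicate block) and in the 2-group fit.

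Ccnb2 and Cdc25c, also of this group, passed in neither EV comparison. Genes that did not pass were found in other groups too. Ccnb2, the cyclin B2 gene, had 34.0 and 44.3 CPM with LD-F1 EVs, 40.5 and 39.2 CPM with LD-F1_b EVs, and 32.9 and 39.9 CPM with PBS. All 3 groups overlapped, and it was the only gene of the 56 whose mean was lowest with PBS. Cdc25c, a phosphatase that activates Cdk1, had 4.57 and 4.27 CPM with LD-F1 EVs, 4.45 and 5.87 CPM with LD-F1_b EVs, and 4.76 and 4.98 CPM with PBS. It had the fewest reads of the 56, 422 in all, and it overlaps Gm3550 on the opposite strand, which had 3117. By contrast Ccna2 (cyclin A2), Cdc25b and Nek2 fell with both EVs, at -0.63, -0.55 and -0.46 with LD-F1 EVs and -0.46, -0.46 and -0.44 with LD-F1_b EVs.

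Both transcription factors fell with both EVs. Mybl2, the activator that works with MuvB, had 75.7 and 74.9 CPM with LD-F1 EVs, 95.8 and 103 CPM with LD-F1_b EVs, and 160 and 153 CPM with PBS. The groups were fully separate in the order LD-F1, LD-F1_b, PBS. Its log2 fold change was -1.05 ± 0.09 with LD-F1 EVs (edgeR adjusted p = 6.41e-06) and -0.65 ± 0.09 with LD-F1_b EVs (adjusted p = 0.000543), and it was the 1 gene still called with LD-F1_b EVs whichever library was left out. Foxm1, the forkhead factor of late mitotic genes, had 46.8 and 43.2 CPM with LD-F1 EVs, 55.3 and 57 CPM with LD-F1_b EVs, and 71.1 and 83.0 CPM with PBS. Its changes were -0.78 ± 0.11 with LD-F1 EVs and -0.46 ± 0.11 with LD-F1_b EVs.

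**Figure D3:**
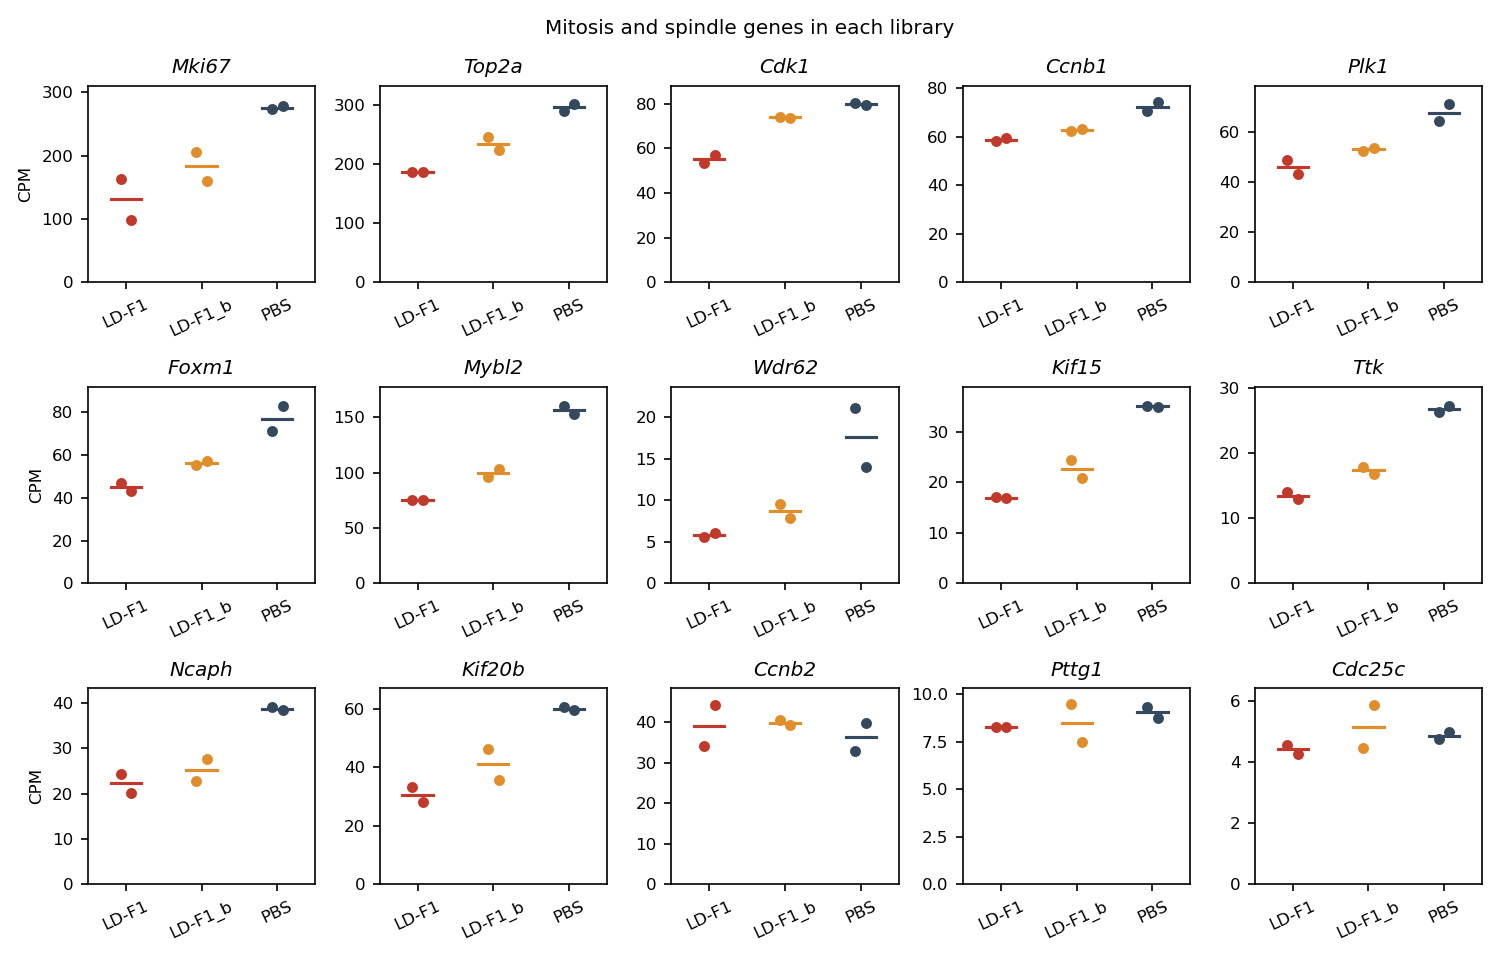
CPM (y axis, from 0) in each library for 15 genes; points are libraries and bars are group means, with LD-F1, LD-F1_b and PBS from left to right. Mybl2 shows 3 separate groups, Ccnb2 shows overlapping ones, and the LD-F1 libraries of Mki67 stand at 163 and 99.1 CPM.

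In the spindle checkpoint and anaphase group, 6 of 7 genes fell with LD-F1 EVs and 3 with LD-F1_b EVs. Ttk, the checkpoint kinase MPS1, had 13.9 and 12.9 CPM with LD-F1 EVs, 17.8 and 16.8 CPM with LD-F1_b EVs, and 26.2 and 27.2 CPM with PBS. The groups did not overlap, and its changes were -0.99 ± 0.14 with LD-F1 EVs (edgeR adjusted p = 0.000285) and -0.63 ± 0.13 with LD-F1_b EVs (adjusted p = 0.0105). Espl1, separase, which cuts cohesin at anaphase, fell by 0.85 with LD-F1 EVs and 0.57 with LD-F1_b EVs on the log2 scale. The checkpoint genes Bub1, Bub1b and Mad2l1 fell with LD-F1 EVs, and of these Bub1b alone also fell with LD-F1_b EVs. Pttg1, securin, the inhibitor of separase, had 8.24 and 8.25 CPM with LD-F1 EVs, 9.46 and 7.46 CPM with LD-F1_b EVs, and 9.33 and 8.76 CPM with PBS. Its groups were close together and it passed in neither comparison. Cdc20, the activator of the anaphase-promoting complex, had the highest level per length of the 56 genes, at 42.1 CPM per kilobase with LD-F1 EVs, 47.3 with LD-F1_b EVs and 56.1 with PBS.

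Centromere and kinetochore genes gave the smallest share of calls with LD-F1_b EVs: 1 of 7, against 5 of 7 with LD-F1 EVs. The 1 gene was Cenpa, the centromeric histone H3 variant, at -0.46 with LD-F1_b EVs and -0.36 with LD-F1 EVs, the LD-F1 call being lost with gene length offsets and without either PBS replicate. Among the 4 subunits of the NDC80 complex, which holds microtubules at the kinetochore, Nuf2 (-0.77) and Ndc80 (-0.55) fell with LD-F1 EVs, while Spc24 (-0.25) and Spc25 (-0.16) did not pass. Without LD-F1 replicate 1 Spc24 was at -0.05 and Spc25 at -0.01, and without LD-F1 replicate 2 they were at -0.49 and -0.34, still not called. None of the 4 passed with LD-F1_b EVs, although Nuf2 did with library totals alone and in the 2-group fit. Of the chromosomal passenger complex, which corrects faulty attachments, Incenp, Aurkb and Cdca8 fell with both EVs, and Birc5 (survivin) did not pass, at -0.50 with LD-F1 EVs and -0.43 with LD-F1_b EVs. Birc5 rested on single libraries: with LD-F1 EVs it was -0.23 without LD-F1 replicate 1 and -0.85, then called, without LD-F1 replicate 2. It was also called lower with LD-F1 EVs by DESeq2, with library totals alone, with no filter and with gene length offsets, with or without the replicate block, and with LD-F1_b EVs with no filter and in the 2-group fit.

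Of the 10 kinesins, the motor proteins that move along microtubules, 8 fell with LD-F1 EVs and 4 with LD-F1_b EVs, and all 10 had both LD-F1 libraries below both PBS libraries. Kif15, a motor that helps keep spindle poles apart, had 17.0 and 16.8 CPM with LD-F1 EVs, 24.5 and 20.9 CPM with LD-F1_b EVs, and 35.0 and 35.0 CPM with PBS. Every LD-F1_b library lay between the other groups. Its changes were -1.05 ± 0.13 with LD-F1 EVs (edgeR adjusted p = 0.000133) and -0.63 ± 0.13 with LD-F1_b EVs (adjusted p = 0.00771). Kif20b, a kinesin of late mitosis, had 33.1 and 28.1 CPM with LD-F1 EVs, 46.4 and 35.8 CPM with LD-F1_b EVs, and 60.5 and 59.5 CPM with PBS. The LD-F1_b libraries were the more spread, and its changes were -0.97 ± 0.14 and -0.55 ± 0.13. Kif11, the motor that separates the poles, and Kif18b, a regulator of microtubule length, also fell with both EVs. The LD-F1_b call of Kif18b was lost with DESeq2 and with the replicate block. Kif4 (-0.45) and Kif18a (-0.47) did not pass with LD-F1 EVs, although Kif4 did with library totals alone, with no filter and with the replicate block.

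Among 6 spindle microtubule proteins, 4 fell with LD-F1 EVs and 2 with LD-F1_b EVs. Wdr62, a spindle pole protein, had 5.62 and 6.04 CPM with LD-F1 EVs, 9.53 and 7.88 CPM with LD-F1_b EVs, and 21.1 and 14 CPM with PBS. Its change of -1.58 ± 0.23 with LD-F1 EVs (edgeR adjusted p = 0.000341) was the largest of the 56, and that with LD-F1_b EVs was -1.01 ± 0.22 (adjusted p = 0.00998). The PBS libraries differed from each other, and an unnamed entry on the opposite strand overlaps Wdr62 and holds 1174 reads against its 956; with the strand setting not stated, the reads of the pair cannot be told apart. Aspm, another pole protein, fell with both EVs, at -0.69 and -0.50. Tpx2, which activates Aurora A, and Prc1, which bundles the central spindle, fell with LD-F1 EVs, at -0.41 and -0.44, and did not pass with LD-F1_b EVs, at -0.24 and -0.17, although Tpx2 did in the 2-group fit. The LD-F1 call of Prc1 was lost with gene length offsets, in the 2-group fit, without LD-F1 replicate 2 and without either PBS replicate.

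All 3 cytokinesis genes and all 7 chromosome structure genes fell with LD-F1 EVs. Anln, Ect2 and Racgap1, which build and position the contractile ring, fell with both EVs, at -0.59, -0.67 and -0.69 with LD-F1 EVs and at -0.34, -0.52 and -0.43 with LD-F1_b EVs. The 5 condensin subunits, which compact chromosomes, all fell with LD-F1 EVs, and Smc2, Ncapd2 and Ncaph did so with LD-F1_b EVs. Ncaph had 24.3 and 20.2 CPM with LD-F1 EVs, 22.7 and 27.6 CPM with LD-F1_b EVs, and 39.1 and 38.4 CPM with PBS. The EV groups overlapped each other and both lay below PBS. Top2a, the topoisomerase that untangles sister DNA, had 187 and 187 CPM with LD-F1 EVs, 246 and 225 CPM with LD-F1_b EVs, and 291 and 303 CPM with PBS. Its groups were separate, with changes of -0.67 ± 0.08 (edgeR adjusted p = 0.000144) and -0.33 ± 0.08 (adjusted p = 0.0228). The LD-F1_b call of Top2a was lost with gene length offsets, at -0.24, also with the replicate block added, and whichever LD-F1_b or PBS replicate was left out (edgeR adjusted p up to 0.265). That of Anln was lost with the replicate block, with or without gene length offsets.

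Mki67, the proliferation marker Ki-67 that coats mitotic chromosomes, had 163 and 99.1 CPM with LD-F1 EVs, 206 and 160 CPM with LD-F1_b EVs, and 274 and 278 CPM with PBS. The replicates disagreed in both EV groups, and 1 LD-F1_b library lay below 1 LD-F1 library. It fell with LD-F1 EVs (-1.08 ± 0.22, edgeR adjusted p = 0.0127), and its -0.59 ± 0.22 with LD-F1_b EVs did not pass (adjusted p = 0.145). The LD-F1 call was lost without either PBS replicate, at adjusted p-values up to 0.0624. With LD-F1_b EVs Mki67 was called lower with no filter, with the replicate block, with gene length offsets, with both of these and in the 2-group fit, where the adjusted p was smallest at 0.00226. Differences between replicates followed gene length in the EV groups: over 9661 genes, Spearman's rho of length with the difference was 0.481 in LD-F1, 0.195 in LD-F1_b and 0.00796 in PBS, a description across genes that share libraries. The longer 28 of the 56 genes had a median of -0.67 with LD-F1 EVs and the shorter 28 a median of -0.52, with 25 and 21 called lower. With gene length offsets in the fit, 44 of the 56 fell with LD-F1 EVs and 30 with LD-F1_b EVs.

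**Figure D4:**
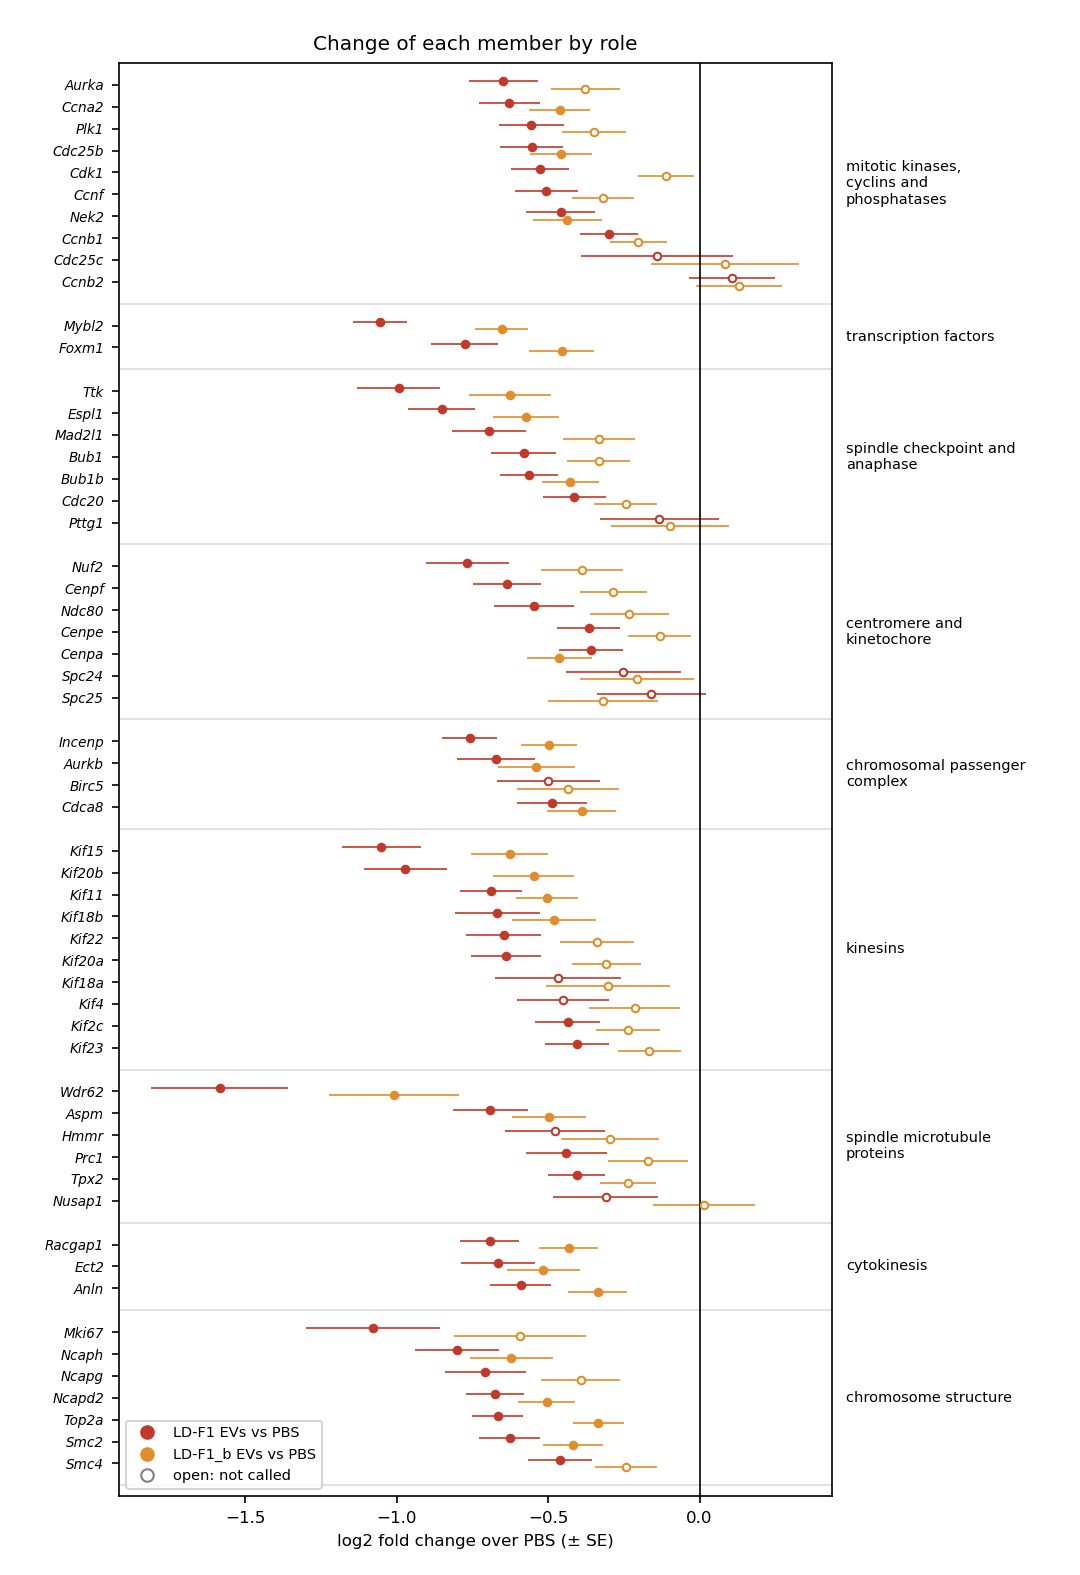
Log2 fold change over PBS (x axis, with SE bars) of each of the 56 genes by role, LD-F1 EVs in red and LD-F1_b EVs in orange; filled points were called by edgeR. Red points lie left of the orange ones for 54 of 56 genes, and only Ccnb2 has a red point right of 0.

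Set against each other, the 2 EVs gave no called gene among the 56 in the fit of all 6 libraries. In edgeR's quasi-likelihood test 23 of the 56 had an unadjusted p under 0.05, against 1119 of all 12740 genes tested. By adjusted p 0 of the 56 were called, and DESeq2 also called 0. That 0 depended on the libraries and settings: 10 genes were called higher with LD-F1_b EVs without LD-F1 replicate 1, 4 without LD-F1 replicate 2, and 2 (Cdk1 and Mybl2) with gene length offsets or with no filter. Of all genes tested in the fit of all 6 libraries, 0.0157% were called higher with LD-F1_b EVs, 0.408% lower and 0.424% either way. The shares in the alternatives are not given here. The log2 fold change of LD-F1_b over LD-F1 was above 0 for 54 of the 56 genes, against 6306 of all 12740 genes tested. The median of the 56 was 0.22, against 0.00 over all genes tested. Both LD-F1_b libraries lay above both LD-F1 libraries for 39 genes, against 17% of all genes tested, and below them for 0, against 17%. The smallest adjusted p was 0.103, for Mybl2, at 0.40 ± 0.09. Cdk1 had 0.42 ± 0.09 (edgeR adjusted p = 0.107) and Top2a 0.33 ± 0.08 (adjusted p = 0.17). Group means ran LD-F1, LD-F1_b, PBS from low to high for 51 of the 56 genes.

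**Figure D5:**
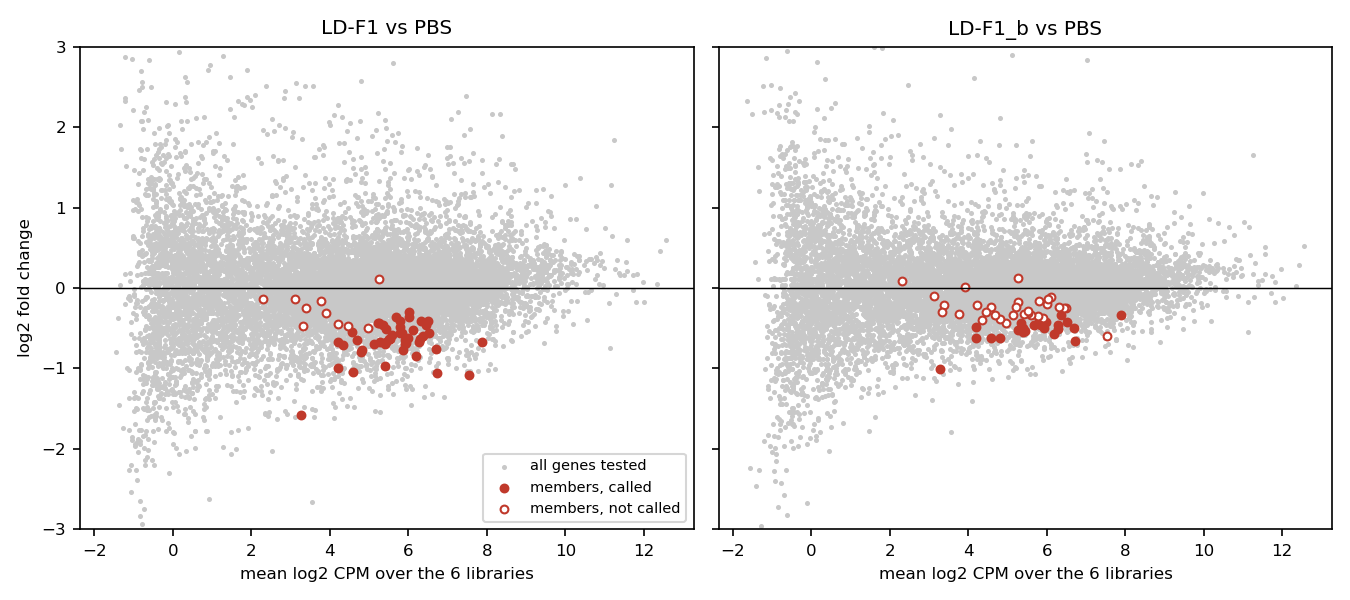
Log2 fold change (y axis, -3 to 3) against mean log2 CPM (x axis) for all genes tested (grey) and the 56 members (red, filled where called), LD-F1 EVs left and LD-F1_b EVs right. Uncalled members sit mostly at low levels with LD-F1 EVs; 52 and 21 genes lie beyond the axis.

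The 10 genes that did not pass with LD-F1 EVs were among the less abundant: 9 of them had under 3000 reads in all, Ccnb2 being the other, and their median was 1258 reads, against 4919.5 for those called. Among the 46 members above 20 CPM on average, 43 fell with LD-F1 EVs and 22 with LD-F1_b EVs. Another table entry with at least 10% of a member's reads overlapped 10 members; without those 10, chosen after the data were seen, 40 of 46 fell with LD-F1 EVs and 22 of 46 with LD-F1_b EVs. By promoter, 29 of 33 genes with the CHR and 10 of 14 without it fell with LD-F1 EVs, with medians of -0.63 and -0.53. With LD-F1_b EVs 16 of 33 and 5 of 14 fell, with medians of -0.38 and -0.36. For CCAAT, 30 of 34 genes with it and 9 of 13 without it fell with LD-F1 EVs, with medians of -0.57 and -0.59. With LD-F1_b EVs these were 16 of 34 and 5 of 13, with medians of -0.38 and -0.34.

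Genes of mitosis outside the 56 were also mostly lower among those called. Of 81 tested, 39 fell, 2 rose and 40 did not pass with LD-F1 EVs, with a median of -0.47. Of all genes tested, 9.87% fell and 11.4% rose, with a median of 0.01. With LD-F1_b EVs 17 fell, 0 rose and 64 did not pass, so most were not called, and the median was -0.30. Of all genes tested, 4.54% fell and 6.44% rose in that comparison, with a median of 0.01. Haspin, the kinase that marks centromeric histone H3, was at -1.24 with LD-F1 EVs and -0.66 with LD-F1_b EVs. Ncapg2, a condensin II subunit, was at -1.14 and -0.62, and Cit, the citron kinase of cytokinesis, at -1.13 and -0.72. Fbxo5, the EMI1 inhibitor of the anaphase-promoting complex, was at -1.07 and -0.82, the kinesin Kif24 at -1.20 and -0.96, and Dsn1, a kinetochore protein, at -0.98 and -0.76. All 6 passed the edgeR test with both EVs. The pair that rose with LD-F1 EVs were Ube2s, an E2 enzyme of that complex, and Zwint, a kinetochore protein, both at 0.40.

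Of 10 regulators of the programme, 4 fell, 1 rose and 5 did not pass with LD-F1 EVs, while 9.87% of all genes tested fell and 11.4% rose. With LD-F1_b EVs 3 fell, 1 rose and 6 did not pass, while 4.54% of all genes tested fell and 6.44% rose. The summed CPM of the 10 stood at a ratio to PBS of 1.004 with LD-F1 EVs and 0.999 with LD-F1_b EVs. That sum includes Cdkn1a, which rose, and does not show that the regulators were level. Their median log2 fold change was -0.24 with LD-F1 EVs and -0.20 with LD-F1_b EVs, against 0.01 over all genes tested in each. The fold change was below 0 for 7 of the 10 with LD-F1 EVs, against 6283 of 12740 genes tested. With LD-F1_b EVs it was below 0 for 8 of the 10, against 6263. The MuvB subunits Lin9 (-0.85) and Lin54 (-0.68) and the pocket proteins Rbl1 (-0.72) and Rbl2 (-0.73) fell with LD-F1 EVs. All but Rbl2 also fell with LD-F1_b EVs, at -0.67, -0.60 and -0.51. Those 3 LD-F1_b calls were each lost in some fits with a library left out. So were the LD-F1 calls of Lin54 and Rbl2. Cdkn1a, the p21 inhibitor of cyclin-dependent kinases, had 217 and 241 CPM with LD-F1 EVs, 216 and 209 CPM with LD-F1_b EVs, and 138 and 141 CPM with PBS. It was higher in both EV groups with no overlap with PBS, at 0.71 ± 0.09 (edgeR adjusted p = 0.000111) and 0.61 ± 0.09 (adjusted p = 0.000783). E2f4, Rbbp4, Lin37, Lin52 and Trp53, which encodes p53, passed in neither comparison.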

How the data were processed

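Poly(A) RNA of 6 libraries was measured on an Illumina NovaSeq. The authors deposited raw read counts by gene. The submitters' processing notes list GRCm39 as build and, as tools, featureCounts 1.5.0-p3, StringTie 1.3.3b, HISAT2 2.0.5 and fastp. The gene identifiers are those of the C57BL/6NJ annotation for 41096 of 41972 entries. The notes used here state neither the strand setting nor how multiply mapped reads were treated. Genes were filtered with filterByExpr, TMM-scaled and fitted over all 6 libraries with edgeR 4.0.16 in R 4.3.3 (robust quasi-likelihood, 3 residual degrees of freedom); the fit was tested on simulated data. DESeq2 1.42.0, other scalings, no filter, a replicate block, gene length offsets, 2-group fits and leaving out libraries were alternatives. Genes described individually were 6 anchors by role, the 5 largest changes in each comparison and the 3 smallest; others were chosen after their values were seen. Members and gene lists were chosen with earlier results of these data known. Of 136 list entries 133 were found, 4 under older symbols. Promoters are RefSeq's; positions count from the annotated start.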

Additional observations from a re-analysis of the deposited data

How the results depend on the processing

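No median of the 56 genes and no called gene among them changed direction under any alternative run. Counts of genes lower with LD-F1 EVs were 31 to 48 and medians -0.61 to -0.57 with 1 library left out; 29 of the 46 calls held in all 4 such fits. With LD-F1_b EVs the counts were 1 to 4 and the medians -0.40 to -0.36. For LD-F1_b over LD-F1, 0 to 10 genes were called higher and the medians were 0.21 to 0.26. Library totals alone gave medians of -0.69 with LD-F1 EVs and -0.44 with LD-F1_b EVs, and moved the median of all genes to -0.10 and -0.07. Gene length offsets gave -0.55 with LD-F1 EVs and called 2 genes higher with LD-F1_b than with LD-F1 EVs, as did no filter (2). Fitting only the groups compared called 40 genes lower with LD-F1_b EVs. The share of all genes called in each alternative is not given here, so the counts of members called are not set against it. The cause of these shifts was not tested.

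The labels do not say whether the replicate numbers pair the samples. Correlations of same-numbered deviations were 0.133 for LD-F1 with LD-F1_b, -0.0189 for LD-F1 with PBS and -0.0424 for LD-F1_b with PBS. Each rests on a single difference between replicates per group, so these low values cannot exclude pairing. The replicate block called 46 genes lower with LD-F1 EVs and 24 with LD-F1_b EVs, and with gene length offsets the median with LD-F1 EVs was -0.55. Standard errors with LD-F1 EVs were largest for Cdc25c (0.25), Wdr62 (0.23) and Mki67 (0.22), which had 422, 956 and 17455 reads.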
